A study of Mus musculus with 83 samples.

Results

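The proteasome genes described here are the subunits of the 20S core particle and the 19S regulatory particle, the proteasome activators and an inhibitor. They were taken by symbol from the culture expression tables: every symbol that begins with Psma, Psmb, Psmc or Psmd and a digit, with Psme1, Psme2, Psme3, Psme4 and Psmf1. The interferon-induced catalytic subunits Psmb8, Psmb9 and Psmb10 were left out by the rule and are given beside the others where the comparison needs them. The rule took 35 of the 11144 genes listed in each culture table. By role they were 7 alpha and 7 beta subunits of the 20S core, 4 ATPases and 8 non-ATPase subunits of the 19S particle, 5 activator or inhibitor genes, and 3 chaperones of 19S assembly (Psmd5, Psmd9 and Psmd10). The remaining one, Psmc3ip, codes for a recombination factor and entered by its name only. Of 42 reference symbols that meet the rule, 7 had no value in the culture tables, and 5 of these are structural 19S subunits (Psmc4, Psmc5, Psmd2, Psmd6 and Psmd7). In the tissue those 5 were listed between 20.2 RPKM (Psmc5) and 31.8 RPKM (Psmd7), so a gene missing in culture cannot be read as low.

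RNA was sequenced from brown preadipocytes that turned into adipocytes in culture, and from brown adipose tissue of mice. The cultured cells came from interscapular brown fat of newborn mice of C57BL/6J background, were homozygous for a loxP-flanked Pparg (Pparg-flox/flox) at every time point, and had been immortalized with SV40 large T antigen. They were sampled while proliferating (day -3), at confluence (day 0), as immature adipocytes (day 2) and as mature adipocytes (day 7). Adipogenesis was induced at day 0 with insulin, T3 (triiodothyronine), IBMX, dexamethasone and indomethacin, and medium with insulin and T3 was renewed at days 2, 4 and 6. The tissue was interscapular brown adipose tissue of C57BL/6J mice at 16 weeks. Each of these 5 groups held 1 library, so no difference has a replicate check and none was tested. No other sample of the series was used.

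The proteasome degrades proteins that carry ubiquitin chains. Its 20S core is a stack of alpha and beta rings, with the protease sites on the beta subunits Psmb5, Psmb6 and Psmb7. The 19S particle binds ubiquitin, removes the chain and unfolds the substrate with a ring of ATPases. The activators PA28 (Psme1 with Psme2, or Psme3 alone) and PA200 (Psme4) can take its place on the core. In brown fat, proteasome genes are known targets of the transcription factor Nfe2l1, which binds antioxidant response elements.

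Promoter sequences are shown first, and whether a motif goes with the size of a difference in level was not tested. The genes with the largest differences, described further down, belong mostly to the 19S particle, all of whose listed subunits were lower at day 7 than at day -3. RefSeq promoter windows of build GRCm38.p6, from 250 bases before to 50 bases after each start, were matched by symbol for 30 of the 35 genes, with no entry for Psmb1, Psmb2, Psmb7, Psmc3 and Psmd3. Both strands were searched for CCGGAAG, the core that ETS factors bind, and for TGACNNNGC, the core of the antioxidant response element. No match of one motif overlapped a match of the other in these genes. In the stretches, read 5′ to 3′ on the gene's strand, capitals mark the match, which reads CTTCCGG where CCGGAAG lies on the opposite strand. The first set holds 19S genes with the ETS core: Psmc1 (chr12:100110122-100110201, + strand), Psmc2 (chr5:21786667-21786746, + strand), Psmc6 (chr14:45329688-45329767, + strand), Psmd4 (chr3:95042696-95042775, - strand), Psmd11 (chr11:80428535-80428614, + strand) and Psmd12 (chr11:107479448-107479527, + strand).
Psmc1: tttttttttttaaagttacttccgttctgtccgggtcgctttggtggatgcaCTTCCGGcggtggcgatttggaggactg
Psmc2: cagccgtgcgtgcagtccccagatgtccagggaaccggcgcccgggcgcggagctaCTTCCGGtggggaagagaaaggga
Psmc6: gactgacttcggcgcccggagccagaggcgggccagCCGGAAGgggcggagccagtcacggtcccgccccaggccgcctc
Psmd4: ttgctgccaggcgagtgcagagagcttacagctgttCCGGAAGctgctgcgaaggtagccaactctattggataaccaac
Psmd11: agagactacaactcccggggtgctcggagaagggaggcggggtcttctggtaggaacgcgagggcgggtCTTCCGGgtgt
Psmd12: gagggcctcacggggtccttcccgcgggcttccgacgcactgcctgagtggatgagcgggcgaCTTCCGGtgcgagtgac
The second set holds Psma6 (chr12:55398657-55398736, + strand), the single 20S gene with an ETS core, and the catalytic subunits Psmb5 (chr14:54617998-54618077, - strand) and Psmb6 (chr11:70525277-70525356, + strand), whose matches are to the antioxidant response element core.
Psma6: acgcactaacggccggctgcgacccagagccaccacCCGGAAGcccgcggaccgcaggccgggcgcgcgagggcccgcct
Psmb5: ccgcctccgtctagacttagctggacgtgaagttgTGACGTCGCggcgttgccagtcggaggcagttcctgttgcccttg
Psmb6: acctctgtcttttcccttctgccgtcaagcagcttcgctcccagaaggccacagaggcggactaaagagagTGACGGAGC

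The ETS core was found in 7 of 10 matched structural 19S genes (70%; Psmd13 is the one not printed) and in 1 of 11 matched 20S genes (9.09%). The matched windows of Psmd1, Psmd8 and Psmd14 held none, and these genes differed by -1.45, -1.08 and -1.38 between day -3 and day 7. Psmc6 and Psmd13, with the smallest differences among the structural 19S genes (-0.51 and -0.74), held it. Outside both particles it was found in Psmc3ip, Psme3 and Psme4. Over all members the count was 11 of 30 (36.7%), beside 19.9% of the culture genes with a window and 9.93% of all genes in the promoter table. In Psmc1, Psmc2, Psmd11 and Psmd12 the printed match began 28, 24, 11 and 17 bases before the start, and in Psmc6 and Psmd4 it began 100 and 125 bases before. Another window of Psmc2 held a match that began 84 bases before its start. In Psma6 the printed match began 132 bases before the start, and others began 2 bases before and 18 bases after it. The COP9 signalosome, a complex whose subunits resemble those of the 19S lid, had the ETS core in 4 of 7 matched genes (57.1%), and the cytosolic ribosomal protein genes had it in 43.4%, so the motif was not particular to the proteasome. The antioxidant response element core was found in 6 of 30 members (20%): Psmb5, Psmb6, Psmc6, Psmd9, Psmd12 and Psme4. That share was near the 17.5% of culture genes. These matches describe letters in a window and say nothing of what binds there.

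Levels are given as FPKM (fragments scaled for transcript length and library size) in culture and as RPKM (reads scaled in the same way) in tissue. Both are per transcript length, which lets genes be set side by side within a library. How reads shared between near-identical copies were counted is not stated, so levels of different genes are compared with that limit. Read depth could not be recovered for the culture libraries, and no counting interval is given for them. In the tissue, 1 read on a 1 kb transcript was worth 0.187 RPKM, and 3 such reads were worth 0.562 RPKM. The deposited culture values summed to between 313685 FPKM (day 2) and 368527 FPKM (day -3), and their medians ran from 12.2 FPKM (day -3) to 13.4 FPKM (day 7). Summed adipocyte markers (6 genes, such as Adipoq and Fabp4) were at 61.7, 141, 6877 and 6339 FPKM at days -3, 0, 2 and 7. Summed brown adipocyte markers (5 genes) reached 149 FPKM at day 7, of which Cox7a1 alone was 132 FPKM. In the tissue these 5 genes summed to 3477 RPKM. Ucp1, the uncoupling protein that defines thermogenic brown fat, was at 1.22 FPKM at day 7 and at 1015 RPKM in the tissue. In bulk RNA, fewer cells of a type and less RNA per cell cannot be told apart.

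Most proteasome genes had their highest level in proliferating cells and their lowest in mature adipocytes. Of the 35 genes, 28 were highest at day -3 (80%), beside 28.4% of all 11144 genes, and 25 were lowest at day 7 (71.4%), beside 29.6%. Both held for 22 members, beside 17% of all genes. The summed level of the members was 2960, 2137, 2142 and 1779 FPKM at days -3, 0, 2 and 7. As a share of the summed FPKM of each library this was 0.803%, 0.670%, 0.683% and 0.531%. The order of levels among members was largely kept: Psmb4, a beta subunit, was the highest member in all 4 culture libraries, and Spearman's rho between day -3 and day 7 over the 35 members was 0.85, which is a description of genes measured in the same 2 libraries.

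**Figure D1:**
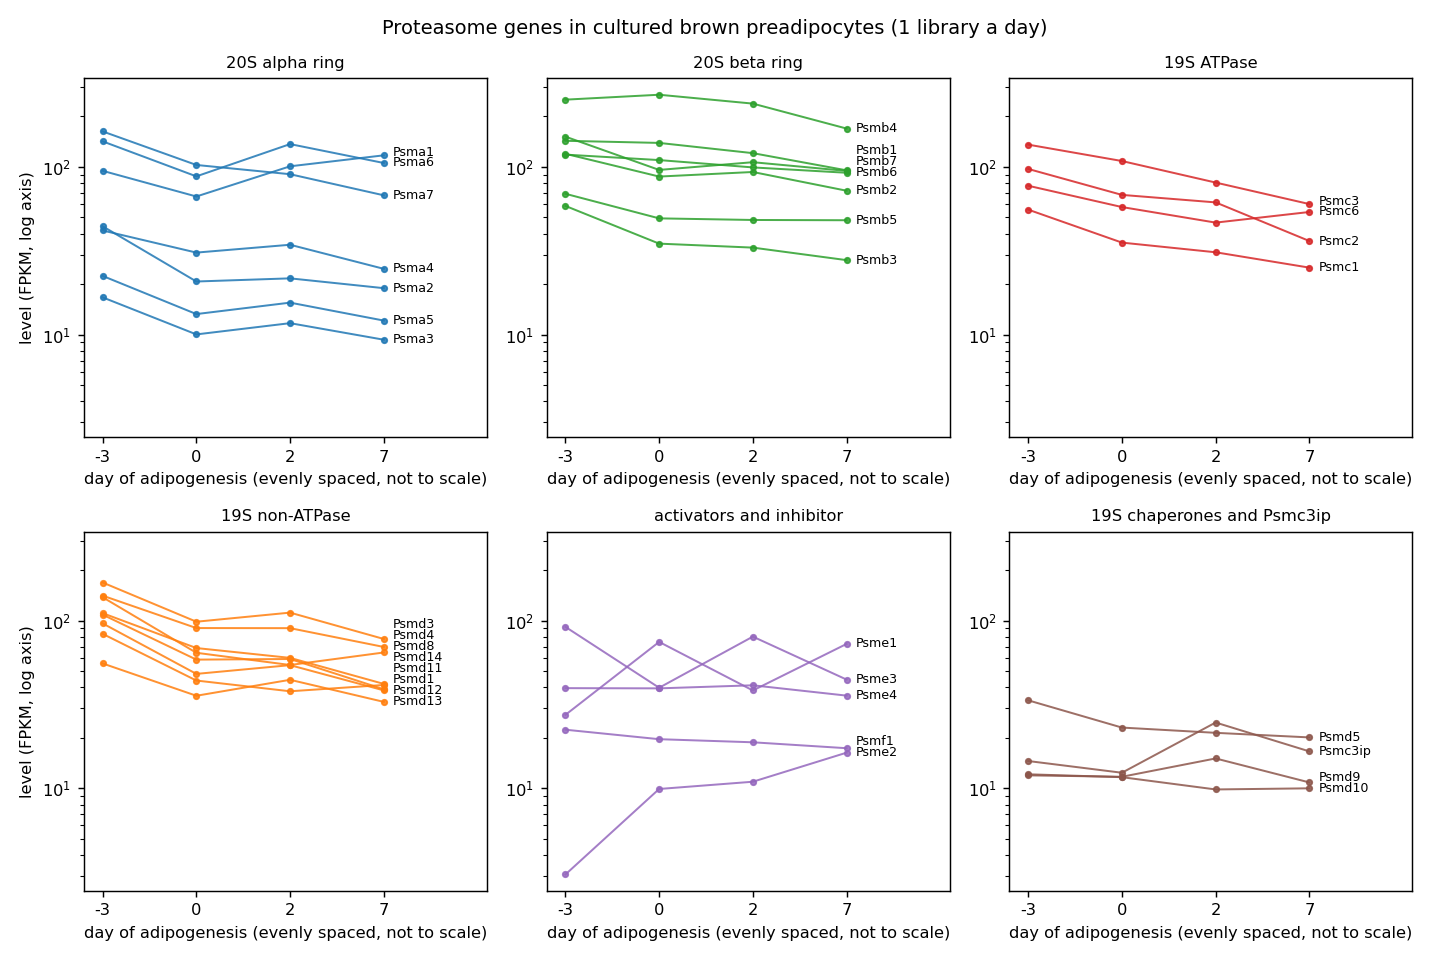
Level of each proteasome gene (y axis, FPKM on a log scale) at days -3, 0, 2 and 7 (x axis, evenly spaced and not to scale), with 1 point per library and panels by role. Lines of the 20S and 19S panels run downward from day -3 to day 7 except for Psma1, while Psme1 and Psme2 run upward, from 27.4 to 72.6 FPKM and from 3.06 to 16.3 FPKM.

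Below, higher and lower by the rule of size mean a difference of at least 1 in log2(FPKM + 1) between 2 libraries, and genes under 1 FPKM in both libraries were not compared. Between day -3 and day 7, 13 of the 35 members were lower by that rule, beside 14.7% of the 10828 genes compared, and 2 were higher, beside 20.3%. At a smaller size, a difference of at least 0.5, 25 members were lower, beside 28.5% of all genes, and 2 were higher, beside 34.4%. At any size 31 members were lower, beside 47.4%. The median difference of the members was -0.74, and that of all genes was 0.07. Rescaling the libraries to a common total of FPKM moved the median of all genes to 0.20 and that of the members to -0.60, which left 7 members lower, while the gap between both medians was -0.81 as deposited and -0.80 rescaled. No member changed sign under this or the median-ratio scaling. With day 0 in place of day -3 as the start, an alternative added after the values were seen, the median was -0.17, no member was lower or higher by the rule (12.7% and 12.3% of all genes were), and 29 were lower at any size, beside 49.9%. The result by this rule therefore rests on the day -3 library.

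**Figure D2:**
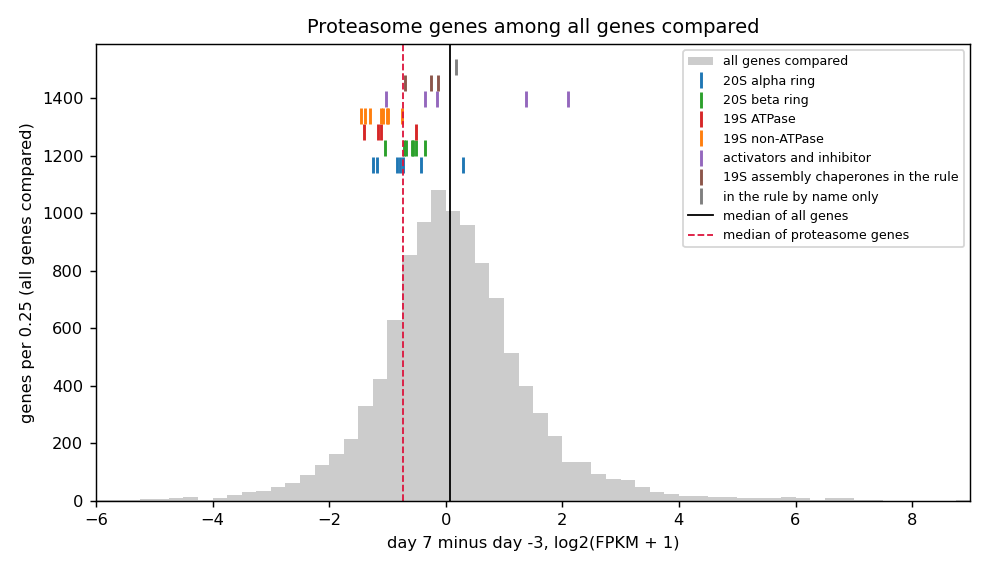
Histogram of the difference between day 7 and day -3 in log2(FPKM + 1) for the 10828 genes compared (y axis, genes per bin of 0.25), with 1 tick per proteasome gene coloured by role. The ticks of the 19S subunits lie left of the median of all genes (0.07, black line), most of them below the members' median (-0.74, dashed line).

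The 19S particle showed the largest differences. All 12 of its structural subunits taken by the rule were highest at day -3, beside 28.4% of all genes. By the rule, 9 of the 12 were lower at day 7, beside 14.7% of all genes, and their median difference was -1.11. In the 20S core, 3 of 14 subunits were lower, a share nearer to that 14.7%, and the median was -0.70. The summed level of the 12 structural 19S genes was 1267, 777, 731 and 580 FPKM at days -3, 0, 2 and 7, so that day 7 held 45.8% of the day -3 level. The 14 core genes summed to 1437, 1118, 1151 and 955 FPKM, with 66.5% of the day -3 level at day 7. The mean level of a 19S subunit relative to the mean of a 20S subunit was 1.03, 0.811, 0.741 and 0.709 at the 4 days. The subunits of both particles overlapped in this measure: single 19S subunits held between 35.9% (Psmd1) and 69.7% (Psmc6) of their day -3 level, and single core subunits between 41.6% (Psma7) and 124% (Psma1). These shares cover the 12 listed structural 19S subunits that meet the rule by symbol. A further 5 that meet it were not listed in culture. Adrm1 and Shfm1, kept outside the rule with the proteasome-bound factors, are not counted in these shares.

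**Figure D3:**
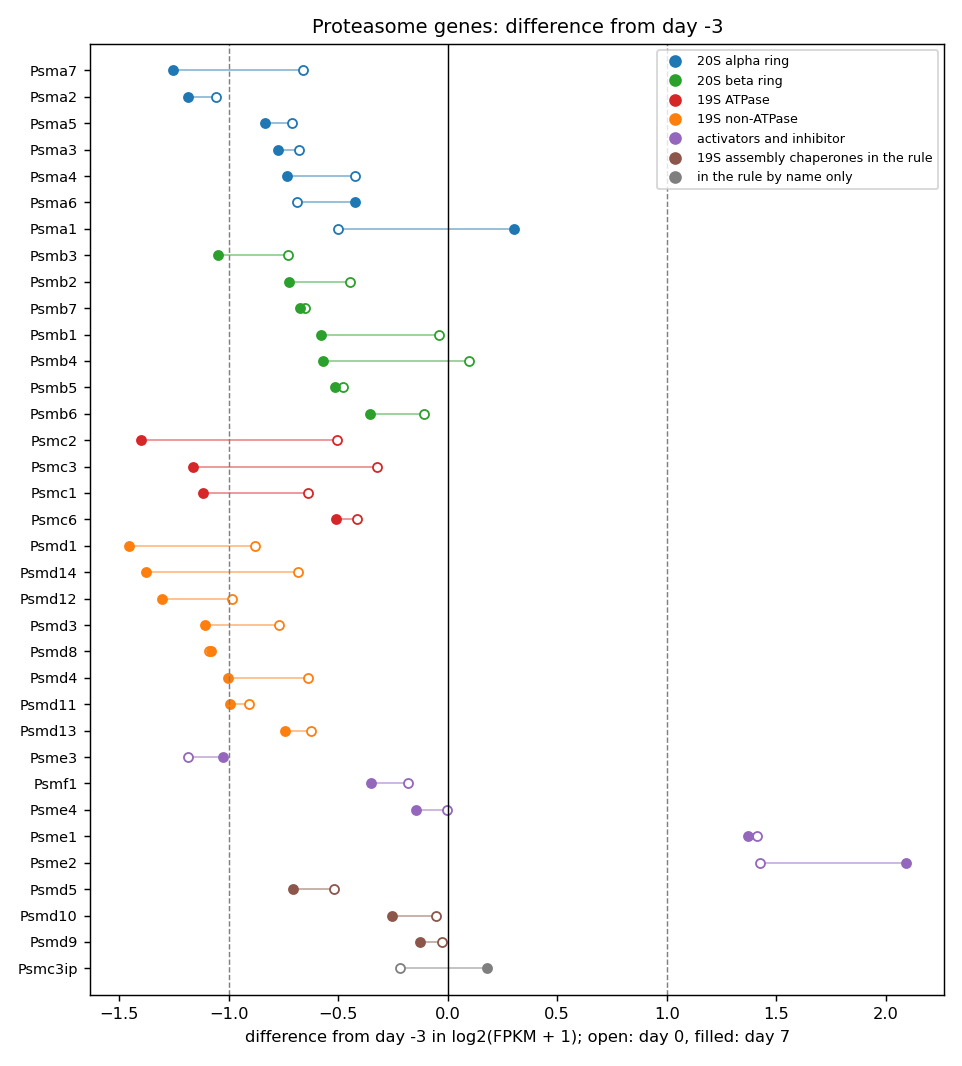
Difference from day -3 in log2(FPKM + 1) (x axis) for each of the 35 genes (y axis), at day 0 (open points) and day 7 (filled points), coloured by role, with dashed lines at the rule of size. The day 7 points of 12 structural subunits and Psme3 lie at or left of -1, and those of Psme1 and Psme2 lie right of 1.

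Among the non-ATPase subunits, Psmd1, the scaffold of the 19S base, was at 108, 58.5, 59.0 and 38.9 FPKM at days -3, 0, 2 and 7, a difference of -1.45 between the ends. Psmd14, the deubiquitinase that takes the ubiquitin chain off the substrate, was at 111, 68.6, 59.9 and 41.9 FPKM, a difference of -1.38. Psmd12, a lid subunit, was at 96.2, 48.1, 54.2 and 38.4 FPKM, a difference of -1.30. In each of these genes the day -3 library was the highest and day 7 the lowest. Psmd3, another lid subunit, was at 169, 98.5, 112 and 77.7 FPKM (difference -1.11). Psmd8, also in the lid, was at 138, 64.3, 54.4 and 64.5 FPKM, a difference of -1.08, and was lowest at day 2. Psmd4, a ubiquitin receptor, was at 141, 90.3, 90.1 and 69.6 FPKM, a difference of -1.01. Psmd11, a lid subunit, lay just outside the rule of size at 83.4, 43.9, 37.9 and 41.3 FPKM, where day 7 held 49.6% of the day -3 level. The remaining one, Psmd13, was at 55.5, 35.6, 44.4 and 32.8 FPKM, with a difference of -0.74. In all of these non-ATPase genes but Psmd14 (-0.68 of -1.38), most of the difference as deposited was in place by day 0. Rescaled to a common total of FPKM, this did not hold for Psmd4 either (-0.429 of -0.869).

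The ATPases unfold substrates and feed them into the core. Psmc2 was at 97.2, 68.1, 61.4 and 36.1 FPKM at days -3, 0, 2 and 7, a difference of -1.40, of which -0.75 lay between days 2 and 7. Psmc3 was at 136, 108, 80.7 and 60.0 FPKM, a difference of -1.16. Psmc1 was at 55.6, 35.4, 31.0 and 25.1 FPKM, a difference of -1.12. These genes were lower at each sampled day than at the day before it. Psmc6 differed in that its lowest level was at day 2: it was at 77.2, 57.6, 46.5 and 53.8 FPKM, with a difference of -0.51 between day -3 and day 7. Among the 12 structural 19S genes taken by the rule, the ratio of highest to lowest level was 3.04, 3.07, 3.60 and 3.10 at the 4 days. At day -3 they lay between 55.5 FPKM (Psmd13) and 169 FPKM (Psmd3). Outside the rule, the proteasome-bound factors Adrm1 and Shfm1 were at 27.3 and 238 FPKM at that day, beyond both ends. The narrow spread therefore depends on which genes are counted.

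In the 20S core the ratio of highest to lowest level was 15.1, 26.9, 20.4 and 18.2, between Psmb4 as the highest and Psma3 as the lowest. Psma7 was at 163, 103, 90.5 and 67.7 FPKM, a difference of -1.25 between day -3 and day 7. Psma2 was at 44.3, 20.7, 21.6 and 18.9 FPKM, a difference of -1.18 that was nearly all in place at day 0 (-1.06). Psma3 was the lowest core subunit in every library, at 16.7, 10.0, 11.7 and 9.32 FPKM. Psma1 stood apart from the other structural subunits. It was at 94.7, 66.6, 101 and 117 FPKM, 0.30 higher at day 7 than at day -3, and the other 25 structural subunits were lower. Psma6 was at 142, 87.8, 137 and 105.5 FPKM, so it and Psma1 were both 0.5 or more higher at day 2 than at day 0 (0.63 and 0.59). Psma4 and Psma5 held 59.1% and 54.2% of their day -3 level at day 7.

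The beta subunits, which hold the protease sites, had a smaller median difference between day -3 and day 7 (-0.58) than the alpha subunits (-0.78). Their summed levels did not differ in that way: day 7 held 65.7% of the day -3 level for the beta subunits and 67.8% for the alpha subunits. The caspase-like site is on Psmb6, which was at 118, 110, 99.3 and 92.3 FPKM, a difference of -0.36 between day -3 and day 7. The trypsin-like site is on Psmb7, which was at 152, 95.9, 107 and 94.6 FPKM (difference -0.67). The chymotrypsin-like site is on Psmb5, which was at 69.1, 49.3, 48.2 and 48.1 FPKM (difference -0.52). Psmb5 and Psmb7 had their largest step between day -3 and day 0 (-0.48 and -0.65), while Psmb6 was lower by small steps throughout. Psmb3, a structural beta subunit, was the single beta gene past the rule of size, at 58.5, 34.9, 33.0 and 27.8 FPKM (difference -1.05). Psmb4 was at 252, 269, 238 and 169 FPKM. As deposited, it was the one structural subunit among the members above its day -3 level at day 0. Rescaled to a common total of FPKM, Psmb1 (0.17) and Psmb6 (0.10) were above theirs as well. Psmb1 and Psmb2 held 66.7% and 60.2% of their day -3 level at day 7.

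For many members much of the difference was present at confluence, before induction. From day -3 to day 0, 32 of 35 members were lower at all, beside 46.4% of all genes, and their median difference was -0.52, beside 0.06 for all genes. By the rule of size Psma2, Psmd8 and Psme3 were lower (3 members, beside 5.43% of 10602 genes compared) and Psme1 and Psme2 were higher (2 members, beside 11.3%). A difference of at least 0.5 was found downward in 20 members, beside 17.9% of all genes, and in 9 members after rescaling to a common total. Under rescaling to a common total none remained lower by the rule, the median was -0.32 beside 0.25 for all genes, and Psmb1, Psmb6, Psmd9, Psmd10, Psme4 and Psmf1 changed sign under one scaling or another. The gap between the medians of members and all genes was -0.58 as deposited and -0.57 rescaled. The day -3 library had the highest summed FPKM, and its part in these differences was not tested.

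From day 0 to day 2, across the hormone induction, the members barely differed as a group. No member was higher or lower by the rule of size, beside 6.18% and 10.7% of 10717 genes, and the median of -0.00 was next to that of all genes (-0.01). At a size of 0.5, 4 members were higher, beside 17.7% of all genes, and 1 was lower, beside 23.7%. By size, the 3 largest differences upward were those of Psme3 (0.99), Psmc3ip (0.94) and Psma6 (0.63), and downward those of Psme1 (-0.94), Psmc3 (-0.42) and Psmc6 (-0.30). From day 2 to day 7 no member passed the rule, beside 9.62% and 5.14% of 10666 genes, but 28 of 35 were lower at all, beside 48.6% of all genes, with a median of -0.33 beside 0.02. At a size of 0.5, 6 were lower, beside 17.2%, and 2 were higher, beside 22.3%. Rescaling to a common total made these 13 lower and 1 higher. Psme3 (-0.84), Psmc2 (-0.75) and Psmd1 (-0.59) had the largest differences downward in this step. Psme1 (0.90), Psme2 (0.54) and Psmd8 (0.24) had the largest upward. These steps share libraries with each other, so a high value in one library enters the steps on both sides of it.

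Psme1 and Psme2, which together form 1 of the PA28 activators, were higher at day 7 than at day -3, unlike nearly all subunits. Psme1, which with Psme2 forms the ring that caps the core in antigen processing, was at 27.4, 74.6, 38.3 and 72.6 FPKM at days -3, 0, 2 and 7. Its level was thus high at confluence and in mature adipocytes, and low in proliferating cells and just after induction, with differences of 1.41, -0.94 and 0.90 at the 3 steps. Psme2 was at 3.06, 9.91, 10.9 and 16.3 FPKM, a difference of 2.09 between day -3 and day 7. A near-identical copy of Psme2 is known in the mouse genome, and the sources used here do not say how reads shared between copies were counted. The summed level of Psme1 and Psme2 relative to the mean level of a core subunit was 29.7%, 106%, 59.9% and 130% at the 4 days. Both genes were past the rule of size from day -3 to day 0 and to day 7 under all scalings run.

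Psme3, which forms its own ring and is known as the nuclear PA28, had the opposite course, at 91.7, 39.8, 80.2 and 44.5 FPKM. It was high in the 2 libraries in which Psme1 was low. Its difference from day 0 to day 2 was 0.99 as deposited and passed 1 under either rescaling and with a pseudocount of 0.1. Psme4, the PA200 activator, was at 39.6, 39.4, 41.1 and 35.7 FPKM, and its largest step, from day 2 to day 7, was -0.20. Psmf1, the inhibitor PI31, was at 22.4, 19.6, 18.8 and 17.3 FPKM, a difference of -0.35 over the course.

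The interferon-induced catalytic subunits, which replace Psmb5, Psmb6 and Psmb7 in the immunoproteasome, were low next to them. Psmb8, the counterpart of Psmb5, was listed at 0.0564, 2.33, 2.08 and 6.21 FPKM. Psmb9, the counterpart of Psmb6, was listed at practically 0 at day -3 and then at 0.676, 0.787 and 6.92 FPKM. Psmb10, the counterpart of Psmb7, was at 7.34, 12.1, 8.64 and 13.9 FPKM. All 3 were higher at day 7 than at any earlier day, like Psme2. Together they made up 2.13%, 5.58%, 4.33% and 10.3% of the summed level of the 6 catalytic genes at days -3, 0, 2 and 7, and 10.8% in the tissue. In culture the share was lower at day 2 than at day 0, as were the levels of Psmb8, Psmb10 and Psme1. The wider list for antigen processing (these genes with Tap1, Tap2, Tapbp, Erap1 and B2m) had 5 of 8 genes higher at day 7 than at day -3 by the rule, beside 20.3% of all genes, and none lower, beside 14.7%, with a median difference of 2.65. The peptide transporter gene Tap2 was at 1.14, 7.82, 7.44 and 21.2 FPKM. Of 6 macrophage markers only Cd68 and Cd14 were listed in culture, where they summed to 5.20, 5.44, 4.18 and 5.01 FPKM at the 4 days. In the tissue 5 of the 6 were listed, with a sum of 26.7 RPKM. The part of other cells in these levels was not tested.

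**Figure D4:**
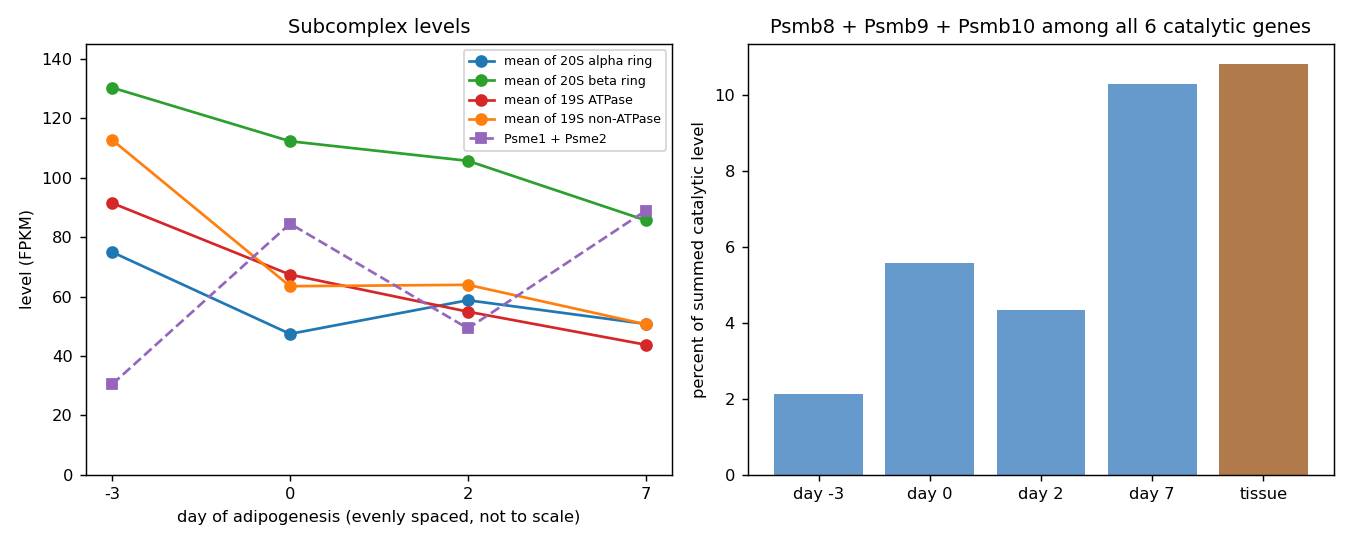
Left, mean FPKM per gene of the alpha ring, beta ring, 19S ATPases and 19S non-ATPases, and the sum of Psme1 and Psme2 (dashed), at the 4 days (x axis, evenly spaced and not to scale). Right, percent of the summed level of 6 catalytic genes taken by Psmb8, Psmb9 and Psmb10 in each library: 2.13% at day -3, 10.3% at day 7 and 10.8% in tissue.

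An interferon-stimulated response element core (GAAA, then any 2 bases, then GAAA) was searched for in the same promoter windows after the values of Psme1 and Psme2 had been seen. It was found on either strand in 4 of 30 matched members (13.3%; Psmb3, Psmd4, Psmd9 and Psme1), beside 3.64% of culture genes with a window, 3.99% of all genes and 13.2% of the matched cytosolic ribosomal protein genes (7 of 53). In Psme1 the match began 10 bases after the start. The matched windows of Psme2 held none. Psmb3 and Psmd4, which hold it, were lower at day 7 than at day -3 by the rule of size.

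The 3 assembly chaperones among the members had a median difference of -0.25, beside -0.91 for the 26 structural subunits. Psmd5 was at 33.5, 23.0, 21.4 and 20.1 FPKM, a difference of -0.71 between day -3 and day 7. Psmd9 was at 11.9, 11.7, 15.1 and 10.8 FPKM, and Psmd10 at 12.1, 11.6, 9.84 and 10.0 FPKM, with differences of -0.13 and -0.25. Psmc3ip, not a proteasome gene, was at 14.5, 12.4, 24.7 and 16.6 FPKM and highest at day 2. Leaving these 4 genes out gave a median of -0.78 for day 7 against day -3, and the same 13 genes lower. Outside the rule, the 20S chaperone Pomp was at 97.4, 59.1, 77.8 and 46.7 FPKM (difference -1.04) and was lower by the rule, which the other 3 listed core chaperones were not.

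Genes listed outside the rule as proteasome-bound factors, among them Adrm1 and Shfm1, were also lower at day 7 than at day -3. All 7 listed were lower at any size, beside 47.4% of all genes, 2 of them by the rule, beside 14.7%, and the median was -0.86. Usp14, a deubiquitinase that trims chains, was at 77.3, 42.6, 35.5 and 24.5 FPKM, a difference of -1.62. Adrm1, a ubiquitin receptor, was at 27.3, 12.4, 11.9 and 10.1 FPKM, a difference of -1.35. Uchl5, the deubiquitinase that Adrm1 recruits, was at 31.3, 18.2, 21.4 and 16.3 FPKM (difference -0.90). Steps before the proteasome also had genes lower at day 7. Uba1, the main ubiquitin-activating enzyme, was at 479, 346, 172 and 168 FPKM (difference -1.51), and the shuttle Rad23b, which carries ubiquitinated proteins to the 19S particle, was at 244, 127, 111 and 70.3 FPKM (difference -1.78). Of 10 shuttle and p97 genes, 3 were lower by the rule (Rad23b, Ubqln2 and Vcp), beside 14.7% of all genes. None was higher, beside 20.3%. Vcp, the p97 ATPase, was at 44.1, 30.9, 27.9 and 21.1 FPKM. Of 27 ubiquitin-conjugating enzymes, 4 were lower, a share near the 14.7% of all genes, and 2 were higher, beside 20.3%. Ube2e1 was at 75.6 FPKM at day -3 and 24.5 FPKM at day 7, while Ube2h went from 7.71 to 31.3 FPKM and Ube2t from 12.1 to 30.7 FPKM.

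The known activator of proteasome genes was not lower. Nfe2l1 was at 77.1, 95.4, 107 and 136 FPKM, highest at day 7 and lowest at day -3, a course opposite to that of most subunits. Nfe2l2, its relative, was at 45.5, 43.9, 40.5 and 50.9 FPKM. Nfe2l1 protein is made active by removal of its sugars and by cleavage, and neither can be seen in RNA. Ngly1, the enzyme that removes the sugars, was at 4.36, 8.63, 8.75 and 10.5 FPKM, and Ddi2, the protease that cleaves Nfe2l1, was at 12.4, 10.7, 28.5 and 19.5 FPKM. Of 14 listed regulators, 3 were higher at day 7 than at day -3 (Sel1l, Nfe2l3 and Ngly1), beside 20.3% of all genes, and 2 were lower (Mafk and Vcp), beside 14.7%, so both counts were near the background.

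The summed levels of other complexes were lower too, so a lower level at day 7 was not particular to the proteasome. Of 73 cytosolic ribosomal protein genes, 20 were lower at day 7 by the rule, beside 14.7% of all genes, and 1 was higher, beside 20.3%, with a median of -0.70, and their summed level at day 7 was 56.2% of that at day -3 (many of these genes have near-identical copies elsewhere in the genome, which can share reads). The 8 listed COP9 signalosome genes had 1 lower by the rule (Cops7b), a share near that of all genes, with a median of -0.62 beside 0.07 for all genes and 70.1% of their summed day -3 level at day 7. The 3 listed subunits of the CCT chaperonin, of 8 in the complex, were all lower, with a median of -1.50. Of 25 genes of autophagy, the other main degradation route, 10 were higher by the rule, beside 20.3% of all genes, and none was lower, beside 14.7%, with a median of 0.87 beside 0.07. Nbr1, an autophagy receptor, was at 20.1, 48.4, 68.3 and 76.1 FPKM. None of these lists was tested against the proteasome genes.

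In brown adipose tissue the members summed to 981 RPKM, 0.346% of the summed RPKM of the library. That total runs over 29082 transcripts, with the highest transcript taken for each member, while the culture totals run over 11144 genes. The tissue share therefore cannot be set against the culture shares. The highest was Psmb7 at 69.6 RPKM and the lowest was Psmc3ip at 1.54 RPKM. The catalytic subunits Psmb5 and Psmb6 were at 25.8 and 27.4 RPKM. Psmd14 was at 22.4 RPKM, Psmd11 at 15.8 RPKM, Psme1 at 22.8 RPKM, Psme2 at 7.51 RPKM, Psme3 at 18.7 RPKM, Psme4 at 17.0 RPKM and Psmf1 at 4.59 RPKM. A 19S subunit had on average 0.840 of the level of a core subunit, between the culture values at day -3 (1.03) and day 0 (0.811). The summed level of Psme1 and Psme2 was 82.1% of the mean core subunit.

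The tissue was normalized separately from the culture, so genes were compared by their percentile rank in each library, over 10472 genes at 1 or more in either. The median rank of the 35 members was 82.0 at day 7 and 89.1 in the tissue, and the median difference was 3.23 points, beside 0.13 for all genes. A higher rank in tissue was found for 25 members and a lower one for 10, beside 49.5% of all genes with a lower rank. Psma2, at 46.8 RPKM in tissue, ranked 35.3 points higher there than at day 7. Psmd10, Psma4, Psmc1, Psmb3 and Psmd12 ranked 24.2, 23.8, 22.3, 12.7 and 10.1 points higher. Psmc3ip ranked 33.8 points lower, and after it Psmf1 (-8.79 points) and Psmb6 (-4.89 points) had the largest differences downward. When the transcripts of a gene were summed in the tissue in place of taking the highest, the median difference was -0.78 points. Of the members, 33 of 35 had 1 transcript in the tissue table, while 78% of the ranked genes had 1. The tissue also held muscle RNA, with 6 skeletal muscle markers summing to 1252 RPKM, and 5 endothelial markers summing to 138 RPKM, and their part in these ranks was not tested.

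**Figure D5:**
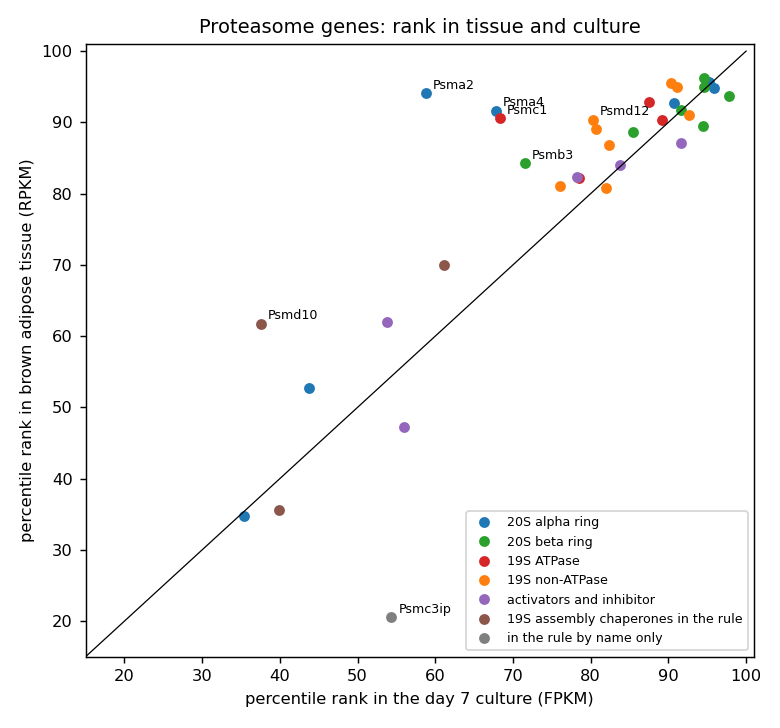
Percentile rank of each of the 35 genes in the day 7 culture (x axis) and in brown adipose tissue (y axis), over 10472 genes, coloured by role, with the line of equal rank. Most points lie on or above the line near the upper right corner, and Psma2 (35.3 points above) and Psmc3ip (33.8 points below) lie farthest from it.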

How the data were processed

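The culture values are FPKM per gene symbol from the deposited tables, in which each listed gene reached at least 1.00125 FPKM in some library. The tissue values are RPKM for 29082 RefSeq transcripts as the authors deposited them. Libraries were made from mRNA purified on beads, per the labels' protocols. For the culture, build mm9 with TopHat2 2.0.10, Cufflinks 1.0.3, CASAVA 1.8.2 and SICER are named in the submitters' processing notes, and for the tissue CASAVA 1.8.2 and mm9. The sources used here do not say which tool made which file or with which annotation. Coordinates printed are RefSeq promoter windows of GRCm38.p6.

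Samples were grouped by title, with 1 library per group, so values are described by counts and medians beside those of all genes. Differences are of log2(FPKM + 1), a scale that understates differences of low genes, and a gene had to reach 1 in either library. RefSeq accessions gave symbols for 28436 of the 29082 tissue transcripts (97.8%). The highest transcript stood for the gene, which gave 11006 culture genes (98.8%) a value in tissue. Among culture genes below 0.3 FPKM, at most 4.76% shared 1 ratio between libraries, so depth was not recovered. For the tissue, 32 of 41 chemosensory receptor transcripts came out as whole reads within 0.02 of a read, with lengths of another build, which makes the read unit an estimate that covers counting error only.

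The members and lists were chosen with earlier results of these data known. Genes named were every member past the size rule in a comparison or else the 3 largest each way, the highest and lowest member, catalytic subunits, activators, assembly chaperones, and listed genes past the rule or set by name. Psmd13, Psma3 to Psma6, Psmb1, Psmb2, Tap2 and the genes of cell type markers were named besides. Alternatives changed the pseudocount, scaling, filter, member list, tissue transcript choice and start day. The code of the size rule was checked on simulated shifts set larger than the rule, which says nothing of the noise between these libraries. Python 3.11.15, pandas 2.3.3, numpy 2.4.6, scipy 1.17.1 and matplotlib 3.10.9 were used.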

Additional observations from a re-analysis of the deposited data

How the results depend on the processing

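No paired analysis was possible because each group holds 1 library, and for the same reason no library was left out. Of 77 values under alternatives, 63 stayed within a set tolerance (1.5 times for a count, 0.1 for a median, 5 points for a rank difference), 11 moved further and 3 changed sign. Within it, members lower at day 7 than at day -3 numbered 10 with a pseudocount of 5 and 14 with median-ratio factors. Scaling had the widest reach. With libraries rescaled to a common total of FPKM, 0 members were lower at day 0 than at day -3 (3 as deposited), with a median of -0.32, and 7 were lower at day 7 than at day -3 (13 as deposited), with a median of -0.60. The share of higher genes among all genes past the rule from day -3 to day 0 was 67.6% as deposited and 80.6% rescaled. From day 0 to day 2, 1 member (Psme3) was higher with rescaling, with median-ratio factors or with a pseudocount of 0.1, and the median changed sign to 0.0214 with rescaling and 0.0138 with median-ratio factors, both next to 0. Median-ratio factors differed from 1 by at most 4.09%. With a pseudocount of 5, 1 member was higher at day 0 than at day -3. Without Psmc3ip, Psmd5, Psmd9 and Psmd10 that step's median was -0.64. With day 0 as the start (added after the values were seen), 0 members were lower at day 7 and the median was -0.17. Summing tissue transcripts turned the median rank difference to -0.78 points. Other causes of these shifts were not tested.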
